A study of Rattus norvegicus with 6 samples.

Results

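The mitochondrial ribosomal protein genes were followed in the liver of rats fed epsilon-momfluorothrin, a pyrethroid insecticide, and of rats fed a control diet. The genes were chosen by name, as all probe sets on the array annotated with 1 gene symbol that starts with Mrps (small subunit) or Mrpl (large subunit) and goes on with a number. This gave 97 probe sets for 73 genes, of 14218 genes with a symbol of their own on the array, with 27 genes in the small and 46 in the large subunit. Expression values did not enter the choice of single genes. The family as a whole was selected on earlier results of the same comparison, the difference in signal between the diets, so every difference between the diets below is a description, and the p-values of single genes serve only to set a difference beside the spread between animals.

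Each diet group held 3 male rats of the strain BrlHan:WIST@Jcl(GALAS), with 1 array of liver RNA per rat. They arrived at 4 weeks of age, spent 1 week in quarantine and 2 weeks on the diet, and were 7 weeks old when the liver was taken. The momfluorothrin diet is labelled with 3000 ppm in the titles and the treatment protocol, and with 5000 ppm in the other labels, a conflict that the labels do not settle. The control diet held 0 ppm.

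Mitochondria make a small set of proteins themselves, all of them core subunits of the respiratory chain and the ATP synthase, on a ribosome of their own. The small subunit of that ribosome decodes the messenger RNA and the large subunit joins the amino acids. Its RNAs come from mitochondrial DNA, but all its proteins are encoded in the nucleus, made in the cytosol and imported. Some of these proteins descend from bacterial ribosomal proteins, and others were added in the course of mitochondrial evolution.

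No mitochondrial ribosomal protein gene changed past the threshold between the diets, and the differences were small and mostly above 0. On the log2 scale the median difference (momfluorothrin minus control) over the 73 genes was 0.07, with the middle 50% of genes between -0.01 and 0.16 and extremes of -0.43 and 0.39. The difference was above 0 for 52 of the 73 genes (71.2%), against 47.5% of all 9200 genes tested, whose median was -0.01. With quantile normalization between arrays 48 of the 73 were above 0, and with each array centred on its median 57 were. The median of all genes tested moved too, to 0.006 with quantile normalization and 0.023 with median centring. The 47.5% therefore does not apply to these 2 counts.

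The test was limma on log2 signals, with p-values adjusted by Benjamini and Hochberg over all probe sets kept. By this test 0 of the 73 genes passed an adjusted p of 0.05, against 0.217% of all genes tested (20 of 9200). The lowest adjusted p among the 73 was 0.27, for Mrpl27. At an unadjusted limma p of 0.05, 7 of the 73 genes lay above, against 6.05% of all genes, and 1 lay below, against 6.18%. The 7 were Mrps5, Mrps6, Mrps22, Mrps31, Mrpl27, Mrpl37 and Mrpl39, and the 1 was Mrpl48. Without momfluorothrin replicate 1 the counts were 3 above and 2 below, and without control replicate 1 they were 4 above and 1 below. The 6.05% and 6.18% of all genes belong to the fit of all 6 arrays, so they are no measure for these counts. Since the family was picked with this comparison in view, nothing is read from these shares.

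The precision sets what the arrays could show. The standard error of a gene's log2 difference had a median of 0.11 over the 73 genes and lay between 0.09 and 0.18. The 95% confidence intervals of all 73 genes lay inside -1 to 1 on the log2 scale, from a lowest bound of -0.77 to a highest bound of 0.68, and those of 58 lay inside -0.5 to 0.5. These intervals are not adjusted for the number of genes.

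**Figure D1:**
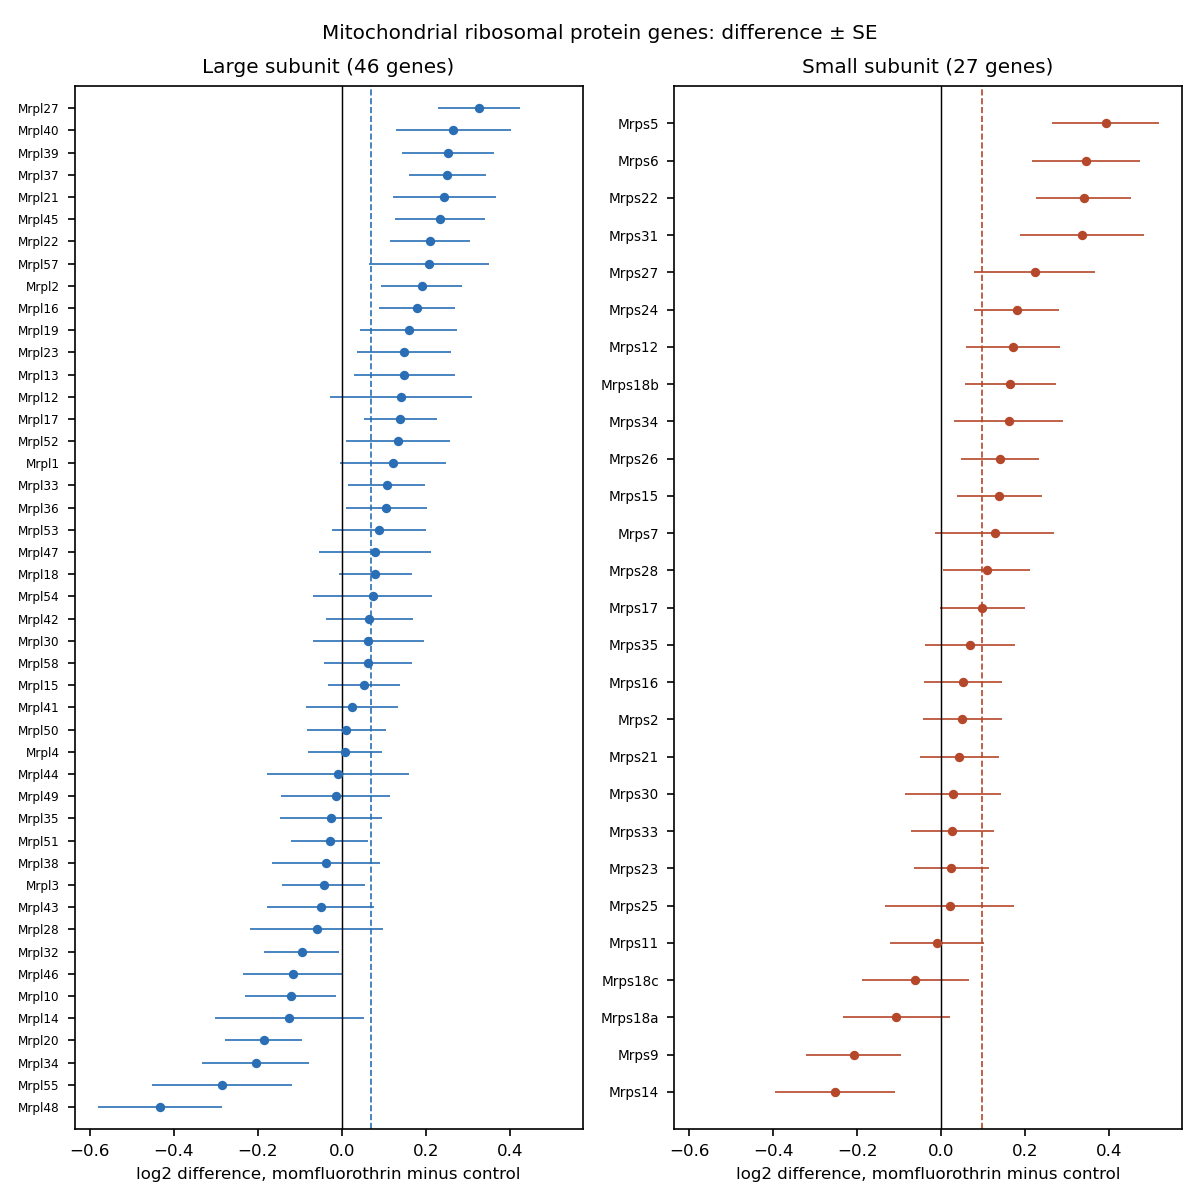
Log2 difference (momfluorothrin minus control) of each gene, with its standard error, for the 46 large subunit genes at left and the 27 small subunit genes at right. The solid line marks 0 and the dashed line the median of each subunit, 0.07 for the large and 0.10 for the small subunit. Mrps5 stands highest at 0.39 and Mrpl48 lowest at -0.43.

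In the small subunit, 22 of 27 genes had a difference above 0, and the median was 0.10. The upper end was held by Mrps5, Mrps6, Mrps22 and Mrps31, and the lower end by Mrps14 and Mrps9. Mrps5 encodes the counterpart of the bacterial protein at the site where messenger RNA enters the small subunit. Its MAS5 signal, a linear intensity scaled per array, was 266, 215 and 197 in momfluorothrin livers and 170, 174 and 169 in control livers. All 3 momfluorothrin arrays lay above all 3 control arrays, and the mean was 226 ± 36.1 in momfluorothrin livers against 171 ± 2.66 in control livers (SD, n = 3 each), a ratio of geometric means of 1.31. The log2 difference was 0.39 ± 0.13 (SE, limma adjusted p = 0.309). It was 0.27 without momfluorothrin replicate 1, the array with the highest signal.

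Mrps6, the counterpart of another bacterial small subunit protein, had signals of 124, 114 and 110 in momfluorothrin livers and 99.2, 94.8 and 80.5 in control livers. Again the groups did not overlap, with a log2 difference of 0.35 ± 0.13 (limma adjusted p = 0.371). Mrps22 encodes a protein with no bacterial counterpart, and its mutation causes mitochondrial disease in humans. It had signals of 104, 107 and 113 in momfluorothrin livers and 84.9, 83.0 and 87.7 in control livers, again with no overlap. Its log2 difference was 0.34 ± 0.11 (limma adjusted p = 0.322). Mrps31, also without a bacterial counterpart, had signals of 110, 89.3 and 87.2 in momfluorothrin livers and 66.4, 78.6 and 81.6 in control livers. The groups were close to each other but separate, and the log2 difference was 0.34 ± 0.15 (limma adjusted p = 0.432). This difference was 0.23 without momfluorothrin replicate 1 and 0.25 without control replicate 1.

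At the other end of the small subunit, Mrps14 had signals of 387, 345 and 371 in momfluorothrin livers and 350, 519 and 461 in control livers. Its groups overlapped through control replicate 1, and the log2 difference was -0.25 ± 0.14 (limma adjusted p = 0.533). Mrps9 encodes the counterpart of a bacterial protein of the head of the small subunit. Its brightest probe set gave 197, 219 and 211 in momfluorothrin livers and 221, 273 and 233 in control livers. These groups did not overlap, by a margin of less than 2 signal units, and the log2 difference was -0.21 ± 0.11 (limma adjusted p = 0.518).

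Other small subunit proteins with well-known places in the ribosome had overlapping groups. Mrps12, the protein of the decoding centre, had 338, 315 and 362 in momfluorothrin livers and 266, 333 and 304 in control livers (log2 difference 0.17 ± 0.11, limma adjusted p = 0.586). Mrps7, a protein of the subunit's head that lies beside the bound transfer RNA, had 311, 253 and 344 in momfluorothrin livers and 243, 272 and 314 in control livers (log2 difference 0.13 ± 0.14, limma adjusted p = 0.759).

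Mrps18a, Mrps18b and Mrps18c are related copies of 1 bacterial protein, S18, and did not lie on 1 side of 0. Mrps18b had a log2 difference of 0.17 ± 0.11, Mrps18c of -0.06 ± 0.13 and Mrps18a of -0.11 ± 0.13, with limma adjusted p-values of 0.586, 0.880 and 0.784. The proteins of Mrps18a and Mrps30 sit in the large subunit in structures of the mammalian mitochondrial ribosome, in spite of their names. Mrps30 had a log2 difference of 0.03 ± 0.11 (limma adjusted p = 0.940).

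In the large subunit, 30 of 46 genes had a difference above 0, with a median of 0.07. The median was 0.04 both without momfluorothrin replicate 1 and with quantile normalization. Mrpl27 encodes the counterpart of a bacterial protein that reaches into the site of peptide bond formation. Its signal was 575, 570 and 636 in momfluorothrin livers and 522, 452 and 447 in control livers. The groups did not overlap, with means of 594 ± 36.5 in momfluorothrin livers and 474 ± 41.7 in control livers (SD, n = 3 each), and the log2 difference was 0.33 ± 0.10 (limma adjusted p = 0.270).

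Mrpl40, Mrpl39 and Mrpl37 encode proteins that bacteria lack. Mrpl39 had signals of 172, 170 and 159 in momfluorothrin livers and 128, 144 and 149 in control livers, with no overlap and a log2 difference of 0.25 ± 0.11 (limma adjusted p = 0.429). Mrpl37 had signals of 402, 405 and 419 in momfluorothrin livers and 328, 331 and 373 in control livers, also with no overlap, and a log2 difference of 0.25 ± 0.09 (limma adjusted p = 0.366). Mrpl40 had 209, 191 and 201 in momfluorothrin livers and 146, 203 and 155 in control livers. Control replicate 2 lay among the momfluorothrin arrays, and the log2 difference was 0.27 ± 0.14 (limma adjusted p = 0.496).

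Mrpl48, a protein of the central protuberance of the large subunit, stood lowest of the 73 genes. Its signal was 94.5, 82.2 and 69.9 in momfluorothrin livers and 119, 99.0 and 113 in control livers. The groups did not overlap, with means of 82.2 ± 12.3 in momfluorothrin livers and 110 ± 10.3 in control livers (SD, n = 3 each). The log2 difference was -0.43 ± 0.15 (limma adjusted p = 0.333).

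Mrpl55, Mrpl34 and Mrpl20 followed it at the lower end. Mrpl55 had 367, 318 and 223 in momfluorothrin livers and 356, 372 and 356 in control livers, so its groups overlapped and its log2 difference of -0.29 ± 0.17 (limma adjusted p = 0.549) drew mostly on momfluorothrin replicate 3. Mrpl34 had 184, 179 and 176 in momfluorothrin livers and 185, 193 and 247 in control livers, separate but adjacent (log2 difference -0.20 ± 0.13, limma adjusted p = 0.573). Without control replicate 3 its log2 difference was -0.08. Mrpl20, whose bacterial counterpart is needed early in the assembly of the large subunit, had 370, 427 and 405 in momfluorothrin livers and 443, 463 and 459 in control livers. Its groups did not overlap, and the log2 difference was -0.19 ± 0.09 (limma adjusted p = 0.474).

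Other large subunit genes with well-known roles had overlapping groups. Mrpl3, the counterpart of a bacterial protein near the site of peptide bond formation, had a log2 difference of -0.04 ± 0.10 (limma adjusted p = 0.893). Mrpl12, the protein of the stalk that recruits translation factors, had 399, 371 and 348 in momfluorothrin livers and 348, 428 and 258 in control livers, a wide spread among controls (log2 difference 0.14 ± 0.17, limma adjusted p = 0.781). Mrpl58, a peptide-releasing enzyme that became part of the large subunit, had a log2 difference of 0.06 ± 0.10 (limma adjusted p = 0.847).

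**Figure D2:**
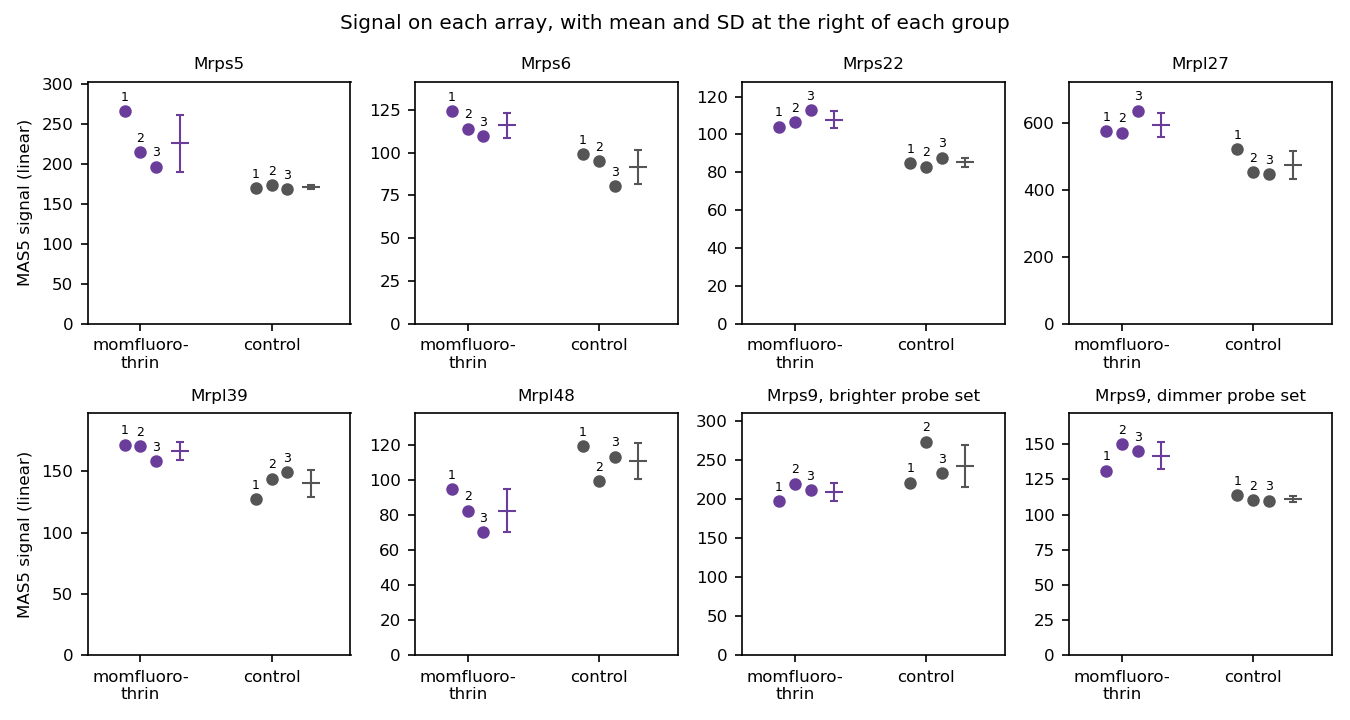
Linear MAS5 signal on each array (points, numbered by replicate) for 7 genes, with the momfluorothrin group left of the control group in every panel and the mean and SD beside the points. In the first 5 panels and for the dimmer Mrps9 probe set the momfluorothrin arrays all lie above the control arrays, and for Mrpl48 and the brighter Mrps9 probe set they all lie below.

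Over the whole family the groups did not overlap for 18 genes. The momfluorothrin arrays all lay above the control arrays for 14 of the 73 (19.2%), against 9.04% of all genes tested, and all below for 4 (5.48%), against 9.23%. With each array centred on its median the shares over all genes tested were 11.5% and 7.21%, beside 16 and 4 of the 73. Beside the genes already given, the 14 held Mrps26, Mrps2, Mrpl45, Mrpl22, Mrpl2, Mrpl16 and Mrpl17, and the 4 were Mrpl48, Mrps9, Mrpl34 and Mrpl20. As for Mrps9 and Mrpl34, the groups of Mrpl22, Mrps2 and Mrpl17 were separate by little. Their lowest momfluorothrin and highest control signals were 417.4 and 417.3, 190.5 and 190.0, and 699 and 697. Without control replicate 1, 18 of the 73 lay above and 11 below with no overlap (29 in all), against 14.1% and 15.7% of all genes. Without control replicate 3, 23 lay above and 5 below (28 in all), against 14.6% and 14.9% of all genes.

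By subunit, 8 of 46 large subunit genes lay above without overlap (17.4%) and 3 below (6.52%). In the small subunit 6 of 27 lay above (22.2%) and 1 below (3.70%). Over all genes tested the shares were 9.04% above and 9.23% below. The median of the large subunit minus that of the small subunit was -0.03 on the log2 scale. Without momfluorothrin replicate 2 the order of the subunit medians turned, to 0.088 in the large and 0.086 in the small subunit, and without momfluorothrin replicate 3 it turned to 0.079 in the large and 0.077 in the small subunit. When the genes were counted by the place of their proteins in structures, with Mrps30 and Mrps18a in the large subunit, the medians were 0.06 over 48 large subunit genes and 0.11 over 25 small subunit genes. By descent, the 43 genes with a bacterial counterpart had a median log2 difference of 0.10, with 30 above 0. The 28 without one had a median of 0.07, with 21 above 0. Mrps30 and Mrpl55 were not assigned to either.

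The family was then set against genes of like brightness, since the difference between the diets varied with signal over all genes. When all genes tested were put in 4 bins of equal size by mean log2 signal, from the dimmest (bin 1) to the brightest (bin 4), the median log2 difference of all genes was -0.11, -0.03, 0.01 and 0.03. Bin 1 held 0 of the 73 genes, bin 2 held 10, bin 3 held 27 and bin 4 held 36. The family's medians in bins 2, 3 and 4 were 0.04, 0.12 and 0.06. Of the 73 genes, 48 lay above the median of all genes in their own bin, with a median distance of 0.06. This held for 28 of the 46 large subunit genes, with a median distance of 0.05, and for 20 of the 27 small subunit genes, with a median distance of 0.07. The share of genes with no overlap also varied with brightness. In bin 4 the momfluorothrin arrays all lay above the control arrays for 5 of the family's 36 genes (13.9%), against 15.5% of all genes there. In bin 3 they did for 6 of 27 (22.2%), against 9.22% of all genes, and in bin 2 for 3 of 10, against 6.61%. They all lay below for 1, 2 and 1 of the family's genes in bins 4, 3 and 2, against 8.17%, 7.13% and 9.48% of all genes. The 10 genes of bin 2 divided evenly, with 5 above 0. They held Mrps6, Mrps22 and Mrps31 among those above and Mrpl48 among those below.

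**Figure D3:**
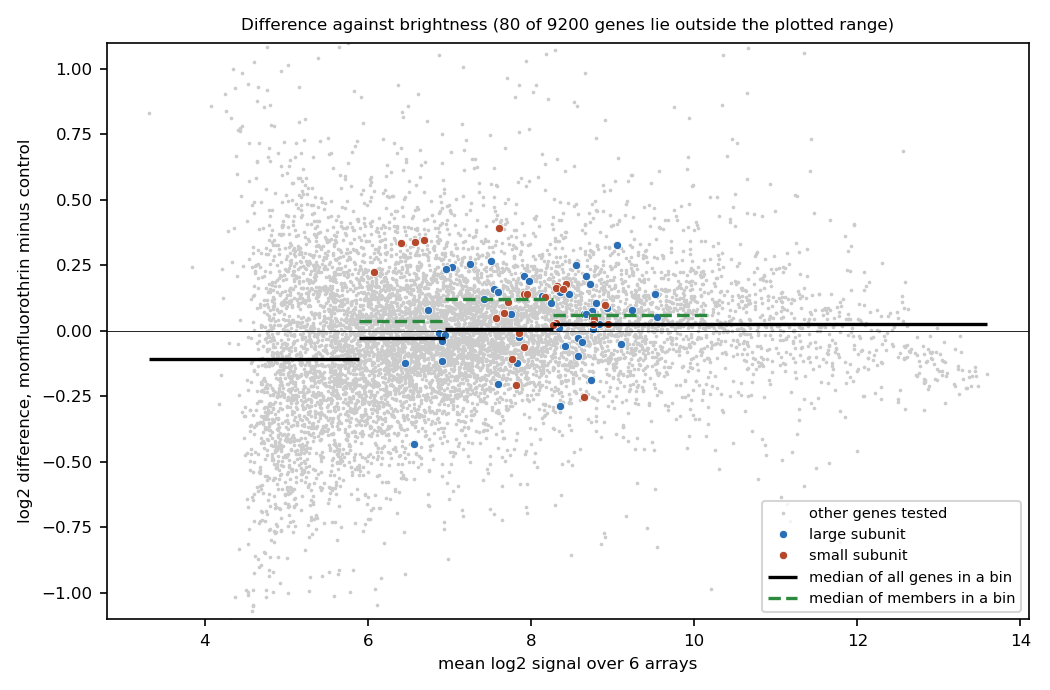
Log2 difference (momfluorothrin minus control) against mean log2 signal over the 6 arrays for the 9200 genes tested, with large and small subunit genes in colour. Black lines give the median of all genes in each of 4 bins of brightness, and dashed green lines the median of the family's genes in bins 2 to 4. The green line lies above the black one in these 3 bins, and 80 genes lie outside the plotted range.

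Replicates of a group differed for these genes about as they did for other bright genes. The median standard deviation within groups on the log2 scale was 0.125 over the 73 genes, 0.127 over all genes of bins 3 and 4 and 0.175 over all genes tested. The family's position was not the same on the arrays of a group. With each gene centred on its mean over the 6 arrays, the median log2 value of the 73 genes was 0.09, 0.03 and 0.01 in momfluorothrin livers and -0.07, -0.02 and -0.01 in control livers. The groups did not overlap, but momfluorothrin replicate 3 and control replicate 3 were close, and momfluorothrin replicate 1 and control replicate 1 were farthest apart. Momfluorothrin replicate 1 was the highest array for 22 of the 73 genes, and control replicate 1 the lowest for 22. Control replicate 3 was the lowest for 20 and momfluorothrin replicate 3 for 12.

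The low value of control replicate 1 differed between the subunits, with a centred median of -0.06 for the large and -0.14 for the small subunit. Control replicates 2 and 3 lay within 0.03 of 0 for both subunits. Genes of the cytosolic ribosome were also low on control replicate 1, at -0.13, but stood in another order among momfluorothrin arrays, at -0.03, 0.08 and 0.11. Subunits of oxidative phosphorylation encoded in the nucleus had 0.02, -0.02 and 0.04 in momfluorothrin livers and -0.09, 0.01 and 0.01 in control livers.

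**Figure D4:**
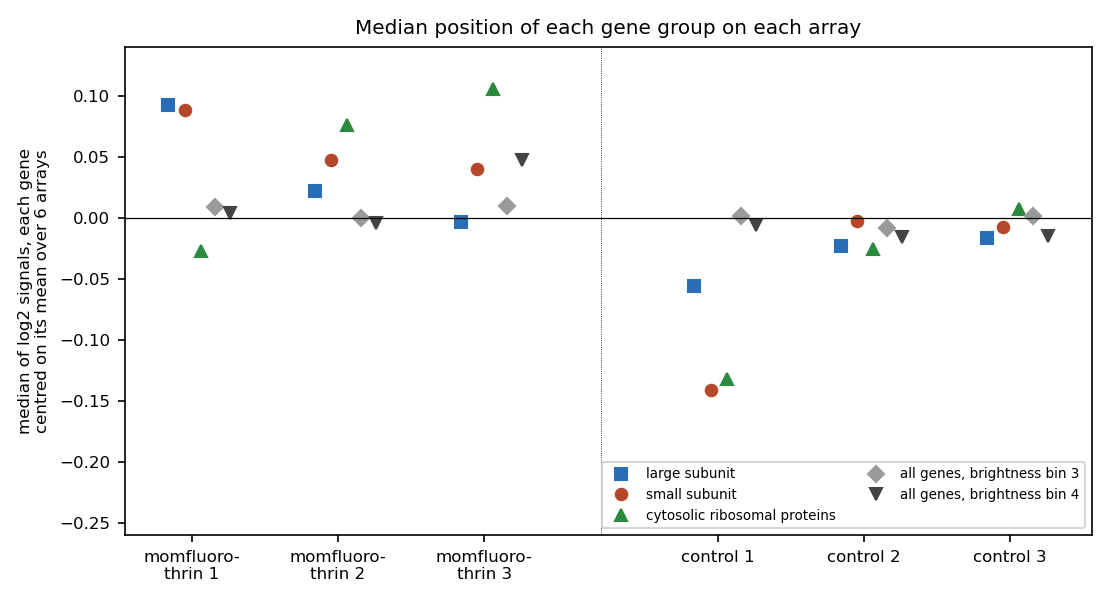
Median centred log2 signal of each gene group on each of the 6 arrays, with momfluorothrin arrays at left and control arrays at right. Control replicate 1 is lowest for the small subunit (-0.14) and for the cytosolic ribosomal proteins (-0.13), while the medians of all genes in brightness bins 3 and 4 lie between -0.02 and 0.05 on all arrays.

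Beside these lists, 0 of 39 cytosolic ribosomal protein genes tested passed the adjusted threshold, with a median log2 difference of 0.09 and 34 above 0. Of 71 oxidative phosphorylation genes tested 0 passed, with a median of 0.05 and 44 above 0. The shares above 0 were 87.2% for the cytosolic ribosomal and 62.0% for the oxidative phosphorylation genes. Over all genes of brightness bin 4 the share was 57.3%, with a median of 0.03, and over all genes tested it was 47.5%. Momfluorothrin arrays lay all above control arrays for 15.4% of the cytosolic ribosomal and 19.7% of the oxidative phosphorylation genes. They lay all below for 2.56% and 1.41%. Over all genes tested these shares were 9.04% above and 9.23% below, and in brightness bin 4 they were 15.5% and 8.17%. No test compared these lists with the mitochondrial ribosomal proteins.

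A gene's probe sets did not always go the same way. Of the 73 genes, 55 had 1 probe set and 18 had several. Among 16 further probe sets kept after the filter on low signals, which belong to 13 genes, 7 had the sign of the gene's brightest probe set and 0 passed the adjusted threshold. Mrps9 was split with both its probe sets free of overlap. Its dimmer probe set gave 131, 150 and 145 in momfluorothrin livers and 114, 110 and 110 in control livers, a log2 difference of 0.35 ± 0.11 (limma adjusted p = 0.293), where its brighter one gave -0.21. Its direction was therefore not settled.

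Mrpl57 was split as well, with 0.21 for the brightest probe set and -0.43 ± 0.18 (limma adjusted p = 0.423) for the other. For Mrpl40 the further probe set had a log2 difference of -0.18, against 0.27, and for Mrps14 it had 0.04, against -0.25. Mrpl37 had 0.10 beside 0.25, on the same side. Mrps2 had a dim further probe set at 30.9, 34.5 and 32.7 in momfluorothrin livers and 21.8, 17.8 and 12.5 in control livers. This probe set passed the filter only through the momfluorothrin arrays, since all 3 control signals lay below their array medians, so its difference is no support for a direction, though it is 1 of the 7 further probe sets of equal sign. Its brightest probe set had a log2 difference of 0.05. Whether the probe sets of a gene read different transcripts was not tested.

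**Figure D5:**
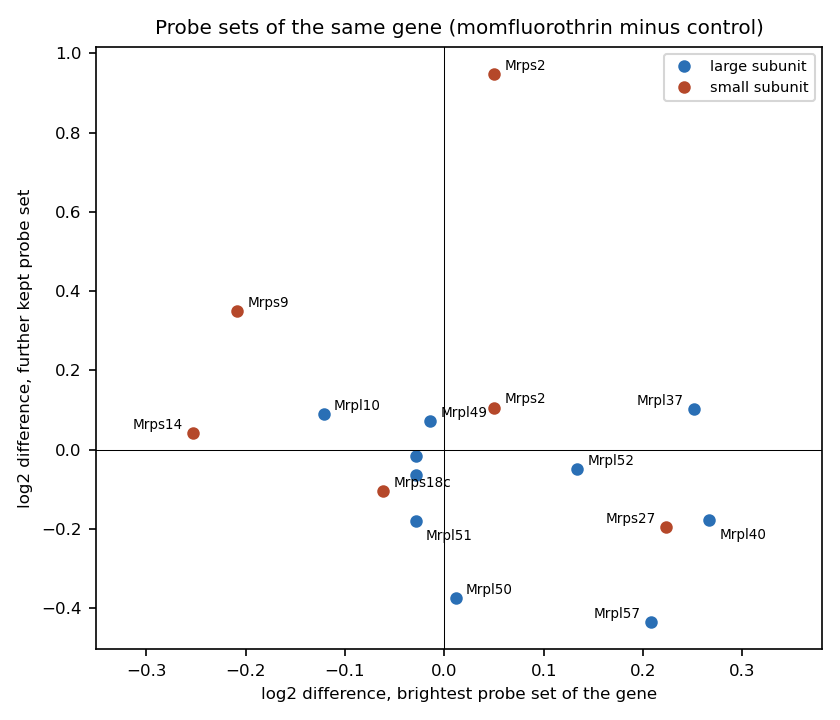
Log2 difference (momfluorothrin minus control) of each of 16 further probe sets against that of the brightest probe set of the same gene. Points in the upper left and lower right have opposite signs; Mrps9 (-0.21 and 0.35) and Mrpl57 (0.21 and -0.43) lie far out, and the 3 points at -0.03 on the horizontal axis are Mrpl51.

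Genes that work with the mitochondrial ribosome were read from lists by role, and 0 genes of any of these lists passed the adjusted threshold. The 5 ribosomal proteins whose symbols do not start with Mrp had a median log2 difference of 0.13, with 4 above 0. Ptcd3 of the small subunit had 308, 357 and 377 in momfluorothrin livers and 299, 291 and 284 in control livers, without overlap (log2 difference 0.25 ± 0.10, limma adjusted p = 0.422). Aurkaip1, also of the small subunit, had a log2 difference of 0.17 ± 0.13 (limma adjusted p = 0.651).

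Of 9 translation factors tested, 7 had a difference above 0, and the median was 0.12. Mtif2, the factor that brings the initiator transfer RNA to the small subunit, had signals of 225, 240 and 200 in momfluorothrin livers and 145, 184 and 126 in control livers. Its groups did not overlap, and the log2 difference was 0.56 ± 0.15 (limma adjusted p = 0.231). Mrrf, which recycles ribosomes after termination, had a log2 difference of -0.28 ± 0.14 (limma adjusted p = 0.481).

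The mitochondrial aminoacyl-tRNA synthetases and amidotransferase subunits, which supply charged transfer RNAs, had a median of -0.04, with 8 of 18 above 0. Momfluorothrin arrays lay all below control arrays for 5 of the 18, against 9.23% of all genes tested, and all above for 1, against 9.04%. In brightness bins 1 and 2, the dimmer ones, 12.1% and 9.48% of all genes lay below. Cars2, the cysteine enzyme, had 67.2, 66.7 and 47.8 in momfluorothrin livers and 88.4, 93.4 and 97.5 in control livers (log2 difference -0.64 ± 0.16, limma adjusted p = 0.218). Qrsl1, a subunit of the glutamine amidotransferase, had 46.1, 35.3 and 38.3 in momfluorothrin livers and 57.3, 56.7 and 64.9 in control livers (log2 difference -0.59 ± 0.17, limma adjusted p = 0.268). In both genes the groups were well apart on the signal scale.

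Among 22 tested genes for the assembly of the ribosome and the modification of its RNA, 14 had a difference above 0, with a median of 0.03. Malsu1, which keeps the immature large subunit from joining the small one, had 472, 480 and 498 in momfluorothrin livers and 396, 383 and 397 in control livers, a log2 difference of 0.30 ± 0.08 (limma adjusted p = 0.234). Rbfa, which helps mature the small subunit, had 142, 114 and 176 in momfluorothrin livers and 108, 96.2 and 103 in control livers (log2 difference 0.47 ± 0.16, limma adjusted p = 0.340). Neither gene's groups overlapped. Of the 22 genes, 2 lay above without overlap (9.09%), against 9.04% of all genes tested, and 1 lay below (4.55%), against 9.23%. The log2 differences of the list ran from -0.59 to 1.40.

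For transcription of mitochondrial DNA, its copying and the handling of its RNA, 10 of 16 genes were above 0, with a median of 0.03. Polg2, a subunit of the DNA polymerase, had 0.29 ± 0.15 and Mtpap, the poly(A) polymerase, -0.24 ± 0.12 (limma adjusted p = 0.482 and 0.50). Of 10 regulators of nuclear genes for mitochondria, 5 were above 0. Nrf1, a transcription factor for such genes, had -0.52 ± 0.27 and Myc, a growth regulator, 0.56 ± 0.37 (limma adjusted p = 0.498 and 0.592), both with overlapping groups.

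The promoters are shown because the genes are all encoded in the nucleus, and whether they share regulators was not tested. The windows below are those of genes with high and low differences, and of Mrpl22 for its NRF1 letters. RefSeq promoter windows (assembly GRCr8) of 250 bases before to 50 bases after a start were found for 59 of the 73 genes, 61 windows in all. They were searched on both strands for 6 motifs. CCGGAAG, the core bound by ETS factors such as GABP, was in 20 of 61 windows (32.8%), against 18.4% of the 8531 windows of genes tested and 8.75% of all 33469 windows. AAGATGG, which YY1 binds and which can also include a start codon, was in 24.6%, against 8.50% and 7.01%. GCGCATGC, the core bound by NRF1, was in 8.20%, against 5.09% and 2.47%.

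The GC box GGGCGG was in 49.2% of the family's windows, against 62.0% of those of genes tested and 33.1% of all. TATAAA was in 13.1%, against 7.06% and 14.2%, and CACGTG in 9.84%, against 9.60% and 6.42%. The windows held a median of 56.0% G and C, against 60.7% for genes tested and 51.7% for all windows. Matches of different motifs overlapped in 1 window, CCGGAAG with the GC box. These shares carry no test.

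The 150 bases before the start are given for 5 genes, 5′ to 3′ along the gene. Capitals mark CCGGAAG, GCGCATGC or AAGATGG on either strand. Mrps5, the gene with the largest positive difference, lies at chr3:135274183-135274332 on the plus strand and holds none of the 3 in this stretch. Mrps31 (chr16:76324066-76324215 on the minus strand) and Mrpl27 (chr10:80092195-80092344 on the plus strand), both higher in momfluorothrin livers, hold CCGGAAG. Mrpl48 (chr1:164351377-164351526 on the minus strand), the lowest of all, holds the same letters on the opposite strand. Mrpl22 (chr10:42845760-42845909 on the plus strand) holds GCGCATGC.
Mrps5: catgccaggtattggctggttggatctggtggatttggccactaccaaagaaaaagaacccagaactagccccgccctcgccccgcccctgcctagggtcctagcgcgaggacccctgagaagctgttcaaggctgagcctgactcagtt
Mrps31: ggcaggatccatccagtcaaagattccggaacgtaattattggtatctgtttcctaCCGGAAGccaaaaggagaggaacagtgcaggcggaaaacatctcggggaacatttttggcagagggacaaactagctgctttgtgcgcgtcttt
Mrpl27: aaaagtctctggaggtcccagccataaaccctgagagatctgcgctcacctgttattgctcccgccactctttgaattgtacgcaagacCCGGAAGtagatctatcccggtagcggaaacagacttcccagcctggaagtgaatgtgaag
Mrpl48: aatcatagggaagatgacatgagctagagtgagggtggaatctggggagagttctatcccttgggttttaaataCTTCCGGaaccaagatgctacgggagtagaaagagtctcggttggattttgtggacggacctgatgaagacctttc
Mrpl22: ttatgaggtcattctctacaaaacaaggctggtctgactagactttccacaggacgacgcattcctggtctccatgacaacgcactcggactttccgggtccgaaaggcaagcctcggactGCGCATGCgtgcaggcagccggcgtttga

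Mrps31 and Mrpl27 at the upper end of the range and Mrpl48 and Mrpl20 at the lower end had the ETS letters in their windows. At the upper end the windows of Mrps5, Mrps6, Mrpl37, Mrpl39 and Mrpl40 lacked them. At the lower end those of Mrps14, Mrps9, Mrpl34 and Mrpl55 did. Over the 20 windows with the ETS letters the median log2 difference was 0.10, with 15 above 0. Over the 41 windows without them it was 0.04, with 27 above 0. The medians were 0.07 with and 0.06 without the YY1 letters. With TATAAA the median was -0.01 over 8 windows, 3 of them above 0, and without it 0.08 over 53. A match is a run of letters and not a measured binding site, and no test was made of these differences.

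Liver is a mixture of cells, and in a piece of whole tissue fewer cells of a type and less RNA per cell cannot be told apart. The hepatocyte markers Alb, Apoa1, Ttr, Serpina1, Hnf4a, Ass1 and Cps1 all lay in brightness bin 4. Their summed signal was 47015 to 52928 in momfluorothrin livers and 52799 to 59475 in control livers, a narrow overlap. All 7 had a difference below 0, with a median of -0.15, and 4 of the 7 lay below with no overlap, against 8.17% of all genes in bin 4. The sums of the other marker lists overlapped between the diets apart from those of cholangiocytes, at 146 to 170 in momfluorothrin livers and 97.3 to 126 in control livers, where 2 of 4 markers did not exceed the array median. Endothelial sums were 1986 to 2115 in momfluorothrin livers and 1761 to 2030 in control livers, and Kupffer cell sums were 739 to 816 in momfluorothrin livers and 788 to 975 in control livers. For stellate cells they were 2060 to 2244 in momfluorothrin livers and 1855 to 2471 in control livers, and for lymphocytes 107 to 137 in momfluorothrin livers and 116 to 149 in control livers. Blood sums were 3479 to 5194 in momfluorothrin livers and 3959 to 4192 in control livers. Muscle markers, with 3 of 4 not above the array median, had sums of 38.8 to 59.4 in momfluorothrin livers and 34.6 to 51.0 in control livers.

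Array medians were 23.1 to 26.5 in momfluorothrin livers and 27.0 to 29.4 in control livers, while the trimmed mean was equal on all arrays. Gapdh control probe sets, read for RNA quality, had 3′ over 5′ signals of 1.23 to 1.28 in both groups, and those of actin had 2.40 to 3.12 in momfluorothrin livers and 2.24 to 2.70 in control livers. The part of cell make-up, of array medians and of RNA quality in the differences of the 73 genes was not tested.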

How the data were processed

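Liver RNA of 6 rats was measured on 1-colour Affymetrix arrays. The authors deposited linear intensities (signals). MAS5 made them, per the submitters' processing notes, with a version not given in the sources here. Trimmed means (2% off each end) were about 100 on every array, so no further normalization was applied.

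Of 31099 probe sets, 57 controls were left out and 15778 were kept, with a signal above the array median on at least 3 of 6 arrays. Of the 97 probe sets of the family 89 were kept, and all 73 genes were tested. GEO's platform annotation gave 20826 probe sets 1 symbol, 436 several and 9780 none. A gene was represented by its brightest kept probe set, which left 9200 genes. Log2 signals, with no pseudocount, were compared with limma 3.58.1 in R 4.3.3 (intensity trend, no block, 2-sided, Benjamini-Hochberg over kept probe sets, threshold 0.05). The fit was tested on simulated data. The number of arrays limits the precision.

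Named genes were the 4 largest positive and 4 largest negative differences per subunit, any gene past the threshold, and Mrps12, Mrps7, Mrps18a, Mrps30, Mrps36, Mrpl3, Mrpl12 and Mrpl58. Mrps36 is not analysed here. Each pathway list gave the 2 genes with the smallest p. Other genes named for lying without overlap, for a split between probe sets, for their marker lists or for a promoter were chosen after their values were seen. The genes and lists were chosen with earlier results of these data known, and the cytosolic ribosomal and oxidative phosphorylation lists were chosen by symbol after the design was written. Alternatives changed the filter, the scaling, the pseudocount, the variance model, the array weights, the probe set rule, the subunit assignment and a replicate block, and left out each array in turn.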

Additional observations from a re-analysis of the deposited data

How the results depend on the processing

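In all 16 alternatives 0 of the family's genes passed the adjusted threshold (72 genes were tested with the filter at the 70th percentile and 73 otherwise), and the lowest adjusted limma p among them lay between 0.225 and 0.413. The family's median log2 difference kept its sign in all of them, from 0.05 with quantile normalization to 0.11 with median centring, and its distance to the median of all genes in brightness bins 3 and 4 was 0.05 to 0.07. The count of genes with no overlap was 22 to 29 when 1 array was left out, where 12.8% to 14.6% of all genes lay above without overlap and 13.2% to 15.9% below. The large minus small subunit median lay between -0.07 and 0.003 over the same 6 alternatives. With the mean of a gene's probe sets the log2 difference of Mrps9 was 0.07, on the other side of 0, and that of Mrpl40 was 0.04.

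Over all genes the count past the threshold was 20, but 2 without the intensity trend, 35 with the mean of a gene's probe sets and 4 to 21 when 1 array was left out, with 4 without momfluorothrin replicate 2 and 7 without momfluorothrin replicate 3. A replicate block gave 13 calls over all genes and 0 among the 73, with a lowest adjusted p of 0.376. Deviations of same-numbered animals correlated at -0.10, 0.10 and -0.06 over genes, and those of other pairs at -0.07 to 0.15. Deviations centred within groups of 3 cannot show whether same-numbered animals were handled together, so a pairing was not settled. All 73 genes passed the filter on low signals, and the number of arrays set the precision.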
